A study of Mus musculus with 2 samples.

Results

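Cxcl12, Cxcl14, Cxcr4 and Ackr3 were followed as a chemokine axis in injured mouse kidney: 2 ligand genes and 2 receptor genes, 4 of the 32285 genes counted in both single-cell libraries. They were chosen by name and by no cutoff on a measured value, though with earlier results of these data known. All 4 were counted in both libraries. They were read in cell barcodes that passed 3 filters (500 or more UMIs, 200 or more genes, mitochondrial share of 50% or less), where a UMI (unique molecular identifier) counts 1 captured RNA molecule. After likely doublets were removed, 8737 cells of the control and 9222 cells of the haplodeficient library remained, grouped into cell classes by marker genes that did not include these 4.

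Both libraries came from kidneys taken 14 days after ischaemia and reperfusion of 1 kidney by clamping of its artery, and in both groups 4 tamoxifen injections followed the injury. The control mice carried no Cre. The haplodeficient mice carried Cdh5-CreERT2, a tamoxifen-inducible Cre recombinase under the promoter of the endothelial cadherin gene Cdh5, with 1 floxed allele of Phd3 (Phd3f/+). PHD3, encoded by Egln3, is an oxygen-dependent prolyl hydroxylase of hypoxia-inducible factors, and the comparison asks how its partial loss in endothelium bears on inflammation and repair. The labels do not say whether the control mice carried the floxed allele, how many mice made up a library, or their age and strain. Each group had 1 library, so no test was possible: every interval below is at the 95% level and covers counting error only, and a difference between libraries cannot be told apart from one between mice or cell preparations.

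CXCL12 is a chemokine that stromal and vascular cells secrete, and it draws in and holds cells that carry the G-protein-coupled receptor CXCR4, among them neutrophils, monocytes, lymphocytes and some endothelial cells. ACKR3 (CXCR7) binds CXCL12 without classical G-protein signalling and takes it up from the extracellular space. CXCL14 is a conserved chemokine that attracts myeloid cells and can bind CXCR4 with modest effect. CXCL12 and CXCR4 are known targets of hypoxia-inducible factors in several cell types, and the axis has been studied in the recovery of the kidney from ischaemia.

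In GENCODE M21 (GRCm38), all 4 are protein-coding genes. Cxcl12 lies on chromosome 6 from 117168535 to 117181367 on the plus strand, Cxcl14 on chromosome 13 from 56288643 to 56296551 on the minus strand, Cxcr4 on chromosome 1 from 128588199 to 128592293 on the minus strand, and Ackr3 on chromosome 1 from 90203980 to 90216751 on the plus strand. Because PHD3 acts on hypoxia-inducible factors, the 250 bases before each RefSeq transcription start (GRCm38) are shown, with the core letters of the hypoxia response element, ACGTG or GCGTG on either strand, in capitals.
Cxcl12 (chr6:117168285-117168534, plus strand): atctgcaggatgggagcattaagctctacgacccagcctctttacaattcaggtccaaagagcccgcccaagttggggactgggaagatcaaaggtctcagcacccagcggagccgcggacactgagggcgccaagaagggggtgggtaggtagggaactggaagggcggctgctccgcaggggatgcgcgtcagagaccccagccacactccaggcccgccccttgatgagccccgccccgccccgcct
Cxcl14 (chr13:56296552-56296801, minus strand): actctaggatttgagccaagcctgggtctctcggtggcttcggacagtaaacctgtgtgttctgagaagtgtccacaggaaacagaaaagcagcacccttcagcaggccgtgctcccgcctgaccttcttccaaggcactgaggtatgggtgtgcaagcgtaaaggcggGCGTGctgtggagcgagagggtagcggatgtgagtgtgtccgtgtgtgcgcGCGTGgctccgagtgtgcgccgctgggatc
Cxcr4 (chr1:128592300-128592549, minus strand): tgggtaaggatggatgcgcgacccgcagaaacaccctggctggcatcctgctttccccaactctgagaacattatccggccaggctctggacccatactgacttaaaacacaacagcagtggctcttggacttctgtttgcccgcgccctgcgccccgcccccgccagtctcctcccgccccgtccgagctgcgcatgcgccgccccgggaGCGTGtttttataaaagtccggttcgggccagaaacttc
Ackr3 (chr1:90203730-90203979, plus strand): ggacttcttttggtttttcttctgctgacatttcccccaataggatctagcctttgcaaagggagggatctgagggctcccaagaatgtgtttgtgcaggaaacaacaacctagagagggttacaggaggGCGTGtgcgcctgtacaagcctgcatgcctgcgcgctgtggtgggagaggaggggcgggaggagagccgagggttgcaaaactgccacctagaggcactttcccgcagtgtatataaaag
The GCGTG form occurred once in the Cxcr4 window, 39 to 35 bases before the start, and once in the Ackr3 window, 120 to 116 bases before it. It occurred at 2 places in the Cxcl14 window, 81 to 77 and 30 to 26 bases before the start. The Cxcl12 window held neither form, and the ACGTG form, which E-box elements share, was in none of the 4. Of 32851 such windows over the genome, 38.6% held 1 of the forms, so a match here is a description of the letters and no sign of a bound site.

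The control library held 107516682 UMIs in retained cells (median 8796 per cell) and the haplodeficient library 93805552 (median 5482). The median mitochondrial share was 10.1% of a cell's UMIs for the control and 2.69% for the haplodeficient library, and 28 cell barcodes occurred in both libraries. The makeup differed: the control library had 2904 proximal tubule-like, 398 endothelial-like, 821 macrophage-like, 103 neutrophil-like and 178 T cell-like cells, and the haplodeficient library 298, 852, 1404, 617 and 1035. Egln3, the targeted gene, was at 24.3 CPM (19.1 to 30.6) in control cells and 18.98 CPM (15.8 to 22.6) in haplodeficient endothelial-like cells, a ratio of 0.780 (0.580 to 1.05). Whether the 3′-end reads lie outside the deleted part is not given in the labels, so this value does not check the genotype. Egln3 also differed in neutrophil-like cells, which are not endothelial: the levels were 199.9 and 69.4 CPM and the ratio 0.347 (0.229 to 0.537).

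Levels below are the UMIs of a gene summed over the cells of a class, per 1000000 UMIs of all genes in those cells (CPM), and ratios are haplodeficient over control. The 3′-end counts are compared within a gene only, never between genes. A difference was called by size under 3 conditions: the libraries together gave 30 or more UMIs and averaged 50 CPM or more, the log2 ratio, with 5 CPM added to each level, was 1 or more either way, and the Poisson intervals were apart. By this rule Cxcl14 was called higher in macrophage-like and neutrophil-like cells, the only calls among the 4 genes. Over the 18 classes and clusters with at least 50 cells in each library, 4 reached the minimum level for Cxcl14, 4 for Cxcr4, 3 for Ackr3 and 2 for Cxcl12. The remaining differences are given with their intervals and were not called. As background for the calls by size, the rule called, in either direction, 0.502% of all genes at the minimum level in endothelial-like cells. It called 2.73% in fibroblast-like and 0.972% in pericyte or smooth muscle-like cells. Among leukocytes it called 0.982% in macrophage-like, 4.8% in neutrophil-like, 3.82% in monocyte-like, 2.43% in T cell-like and 1.73% in conventional dendritic cell-like cells and 3.42% in the Wdfy4- and Xcr1-led cluster. Among tubule cells it called 2.53% in proximal tubule-like, 1.4% in descending thin limb-like, 1.2% in thick ascending limb-like, 1.4% in distal convoluted tubule-like, 2.21% in principal or connecting tubule-like cells and 2.16% in intercalated cell-like cells, and 0.814%, 1.19% and 1.2% in the unnamed Havcr1-, Slc26a4- and Tnc-led clusters.

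**Figure D1:**
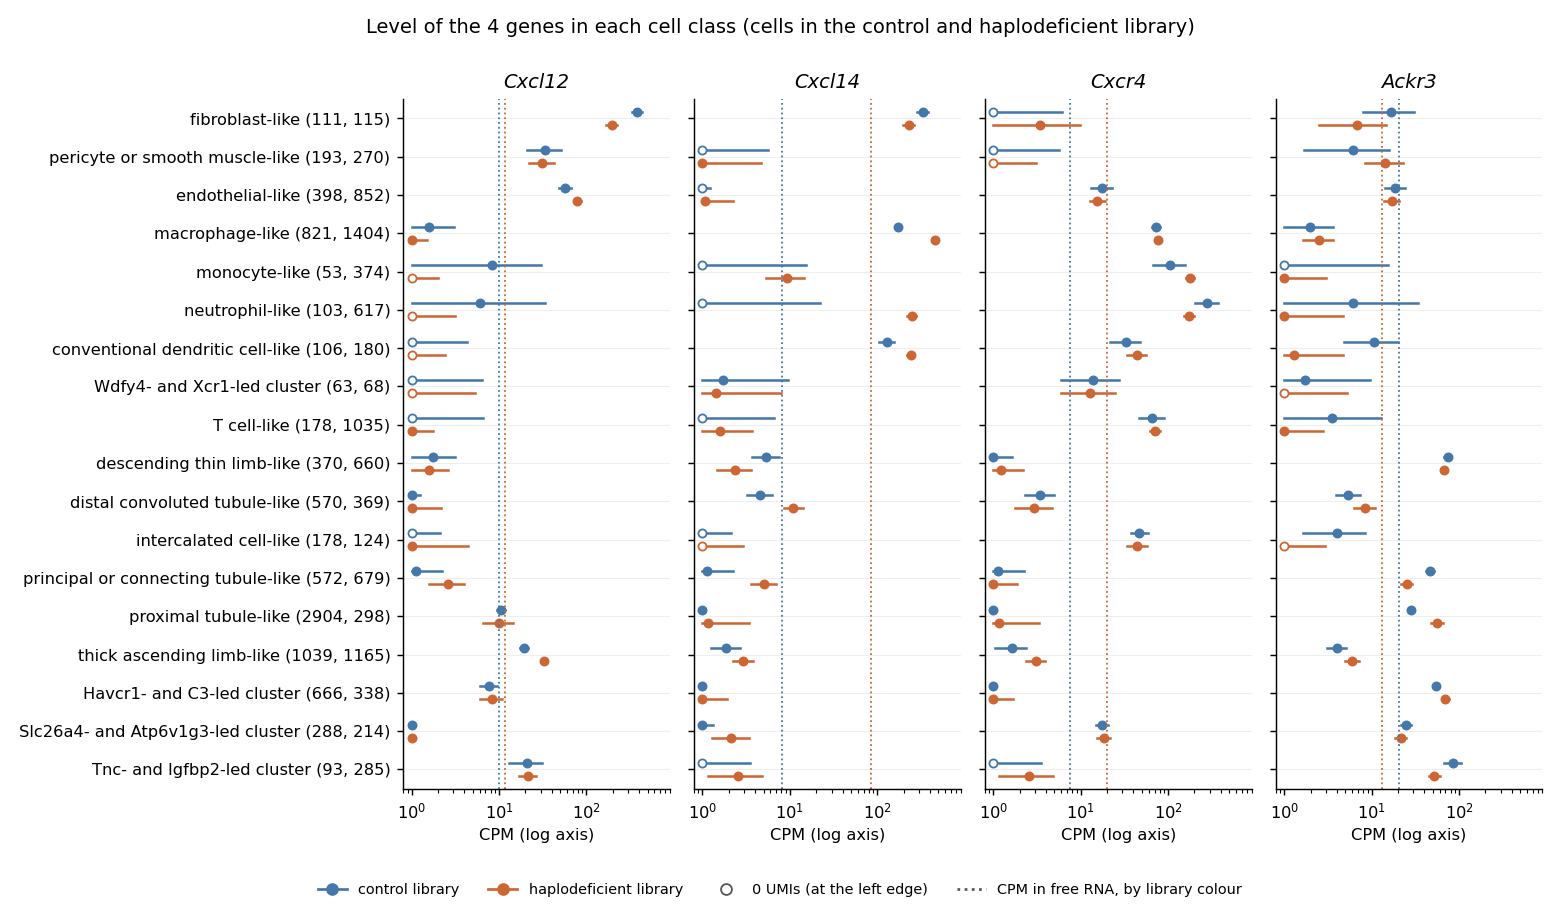
Level of each gene (CPM, log axis) in the 18 cell classes and clusters with at least 50 cells in each library. Points are the control (blue) and haplodeficient (orange) libraries, bars are exact Poisson intervals, open points mark 0 UMIs, levels under 1 CPM are drawn at the left edge, and dotted lines give the level in free RNA. Cxcl12 was highest in fibroblast-like cells in both libraries, and Cxcl14 in neutrophil-like cells had 0 control and 291 haplodeficient UMIs.

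The level of Cxcl12 was highest in stroma and vessels, with lower levels in some tubule cells. In fibroblast-like cells, marked by Pdgfra, Col1a1, Dcn and other matrix genes, it reached 383 CPM in control cells (335 to 436, 233 UMIs) and 194 CPM in haplodeficient cells (166 to 225, 171 UMIs). It was next in endothelial-like cells, at 57.2 CPM in control cells (49.04 to 66.4, 174 UMIs) and 78.7 CPM in haplodeficient cells (72.02 to 85.8, 514 UMIs). Their intervals were apart in each library. Pericyte or smooth muscle-like cells had 33.5 and 31.1 CPM, and the Tnc- and Igfbp2-led cluster, whose leading genes included Wt1, Foxd1 and Wnt16 and which stayed unnamed, had 20.7 and 21.4 CPM. The pericyte level overlapped those of the cluster and of thick ascending limb-like cells in both libraries, and that of endothelial-like cells in the control. In most leukocyte classes and the distal tubule the gene was near 0. Macrophage-like cells had 8 UMIs in 821 control cells and 8 in 1404 haplodeficient cells, and T cell-like cells had 0 and 1. Monocyte-like cells had 2 and 0 UMIs, and neutrophil-like cells 1 and 0. On so few UMIs their control levels were loosely bounded, at 8.35 CPM (1.01 to 30.2) and 6.06 CPM (0.153 to 33.8). Both intervals overlapped that of control thick ascending limb-like cells. Descending thin limb-like, distal convoluted tubule-like, intercalated cell-like and principal or connecting tubule-like cells lay between 0 CPM in control intercalated cells and 2.60 CPM in haplodeficient principal or connecting tubule cells.

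The libraries differed in opposite directions in the 2 leading classes. In fibroblast-like cells Cxcl12 was lower in the haplodeficient library, with a ratio of 0.506 (0.413 to 0.618) and a log2 ratio of -0.97, just short of the size rule. In endothelial-like cells, the class in which Cdh5 drives the Cre, it was higher, with a ratio of 1.37 (1.16 to 1.64) and a log2 ratio of 0.43. Both intervals lie to 1 side of 1, and the difference between the 2 ratios was not tested. When each cell was thinned to 1000 UMIs, a Cxcl12 UMI was left in 28.8% (20.6 to 38.2) of 111 control fibroblast-like cells and in 21.7% (14.6 to 30.4) of 115 haplodeficient ones (54.95% and 43.5% unthinned). In endothelial-like cells it was left in 4.58% (2.69 to 7.24) of 371 and 7.32% (5.63 to 9.32) of 820 cells (20.6% and 22.8% unthinned). T cell-like cells, which lack the gene, had it in 0 of 174 and 0 of 1017 thinned cells, which at a limit of 3 counts allows a share of up to 1.72% and 0.295%. Median depths were 4645 and 6408 UMIs in fibroblast-like, 4468 and 4301 in endothelial-like, and 2702 and 2579 in T cell-like cells. The shares thus lay in the same order as the levels, with overlapping intervals. Fibroblast-like cells also carried macrophage markers, summing to 2108 CPM in the control and 1709 CPM in the haplodeficient library, against 48574 and 54103 CPM in macrophage-like cells. All 10 markers of that list were detected there. Their part in the Cxcl12 ratio was not tested.

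Among the named endothelial subtypes, the level of Cxcl12 was highest in arterial-like and descending vasa recta-like cells. Arterial-like cells (Gja4, Bmx, Sema3g) had 89.4 CPM in control cells (64.4 to 121, 42 UMIs) and 161 CPM in haplodeficient cells (129 to 199, 87 UMIs). Descending vasa recta-like cells (Slc14a1, Aqp1), which line the vessels that carry blood into the medulla, had 88.02 CPM in control cells (66.8 to 114, 58 UMIs) and 148 CPM in haplodeficient cells (125 to 174, 152 UMIs). An unnamed subcluster led by Calca and Ccl4 had 68.3 and 112 CPM. Venous or ascending vasa recta-like cells (Nr2f2, Plvap, and also led by the capillary gene Rgcc) had only 8.04 and 8.92 CPM on 3 and 13 UMIs. Glomerular-like cells (Ehd3, Plat) had 1.87 and 13.7 CPM on 1 and 19 UMIs. The arterial-like and descending vasa recta-like intervals overlapped each other in each library, and both lay above those of the venous-like and glomerular-like cells. The level was higher in the haplodeficient library in each of the 4 subclusters with at least 20 Cxcl12 UMIs per library, with a ratio of 1.81 (1.24 to 2.68) in arterial-like, 1.68 (1.24 to 2.32) in descending vasa recta-like and 1.64 (1.03 to 2.71) in Calca- and Ccl4-led cells. A subcluster that also carried the mural genes Myh11 and Rgs5, 35 and 67 cells of high depth, had 67 and 118 CPM, a ratio of 1.76 (1.24 to 2.54), and held 163 of the 514 haplodeficient endothelial Cxcl12 UMIs. In venous-like cells the ratio was 1.11 (0.305 to 6.07), and in glomerular-like cells 7.35 (1.17 to 305), the latter on a single control UMI. The Slc34a1- and Gpx3-led subcluster, 22 and 30 shallow cells with proximal tubule genes, lay the other way, with 5 control UMIs (125 CPM), all in 1 cell, and 0 haplodeficient ones. The Plvap- and Rgcc-led cluster found before the endothelium was subdivided had 44.9 and 46.5 CPM, a ratio of 1.03 (0.708 to 1.54). None of the ratios in the 4 subclusters was called by size, where 2.11%, 2.45%, 2.11% and 1.4% of genes were called in the arterial-like, descending vasa recta-like, Calca-led and Myh11-led cells. Without the subclusters that carried genes of pericytes, proximal tubule or podocytes, a choice made after seeing the data, the endothelial levels of Cxcl12 were 68.5 and 88.9 CPM, with a ratio of 1.30 (1.05 to 1.60). Pericyte markers summed to 964 and 909 CPM over all endothelial-like cells, and 14 dissociation-stress genes to 21782 and 20010 CPM. Within subclusters, pericyte markers summed to 413 and 516 CPM in arterial-like, 147 and 208 CPM in descending vasa recta-like, 131 and 153 CPM in Calca-led and 3750.3 and 3127 CPM in Myh11-led cells. Fibroblast markers summed to 74.5 and 106 CPM in arterial-like and 215 and 141 CPM in descending vasa recta-like cells. The part of these markers in the Cxcl12 ratios was not tested.

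**Figure D2:**
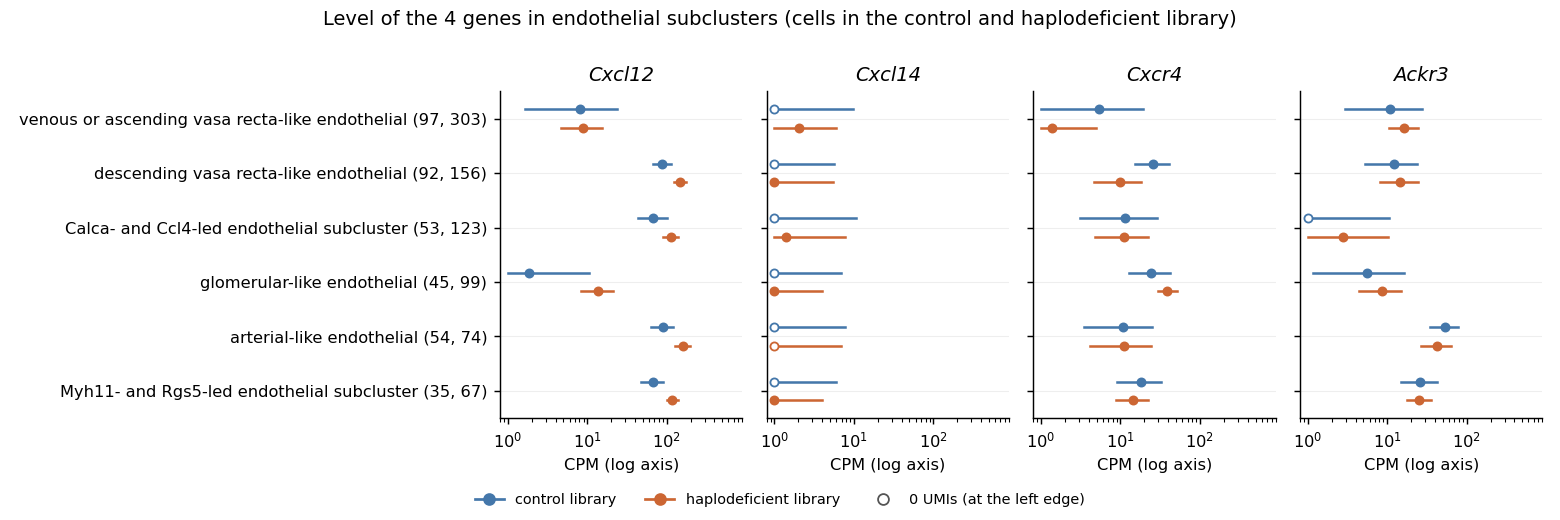
Level of each gene (CPM, log axis) in 6 endothelial subclusters of the control (blue) and haplodeficient (orange) library, with exact Poisson intervals. Open points mark 0 UMIs, and the small Slc34a1- and Gpx3-led subcluster is not drawn. Cxcl12 was high in the arterial-like, descending vasa recta-like, Calca- and Ccl4-led and Myh11- and Rgs5-led subclusters, Ackr3 was highest in arterial-like cells and, in the haplodeficient library, Cxcr4 in glomerular-like cells.

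A further site of Cxcl12 was the thick ascending limb, the tubule segment that takes up salt through Slc12a1. Its cells had 19.3 CPM in control cells (17.2 to 21.6, 311 UMIs) and 32.4 CPM in haplodeficient cells (29.97 to 34.9, 685 UMIs), a ratio of 1.68 (1.46 to 1.92). The mean level was under the minimum of the size rule. Of its 2 clusters, the one led by Enox1 and Slc12a1 had 13.2 and 31.2 CPM, a ratio of 2.36 (1.95 to 2.86). The one led by Egf and Wfdc15b had 30.3 and 39.1 CPM, a ratio of 1.29 (1.01 to 1.64). The control library thus held more Cxcl12 in the Egf-led than in the Enox1-led cluster, and in the haplodeficient library the 2 intervals overlapped. Markers of the other Cxcl12-rich classes were low in thick ascending limb-like cells: endothelial markers summed to 57.5 and 52.8 CPM, against 9796 and 9352 CPM in endothelial-like cells, and fibroblast markers to 105 and 129 CPM. The dissociation-stress genes summed to 10777 and 15055 CPM there, and their part in the ratio was not tested. Proximal tubule-like cells had 10.6 and 9.98 CPM, a ratio of 0.945 (0.609 to 1.41) that turned to 1.43 with the same cluster weights in both libraries. Free RNA, read in barcodes with 1 to 100 UMIs, held Cxcl12 at 10.1 CPM (7.75 to 12.8) and 11.8 CPM (9.12 to 15.1), of which 0.288 and 0.534 CPM was expected in these cells. Summed over cells, the thick ascending limb held 24.8% of all Cxcl12 UMIs of the control and 42.5% of those of the haplodeficient library, the endothelium 13.9% and 31.9%, and fibroblast-like cells 18.6% and 10.6%. Proximal tubule-like cells held 29.8% and 1.61%, with 2904 and 298 cells counted.

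Cxcl14 had another pattern: fibroblast-like cells and macrophage-like cells held it, and endothelium did not. In fibroblast-like cells it was at 332 CPM in control cells (288 to 381, 202 UMIs) and 229 CPM in haplodeficient cells (198 to 263, 202 UMIs), a ratio of 0.689 (0.564 to 0.841). In macrophage-like cells, marked by C1qa, Adgre1 and Csf1r, it was at 171 CPM in control cells (159.9 to 183, 874 UMIs) and 454 CPM in haplodeficient cells (442 to 468, 4727 UMIs), a ratio of 2.66 (2.47 to 2.86). The order of these 2 classes was reversed between the libraries, with fibroblast-like cells highest in the control and macrophage-like cells highest in the haplodeficient library. The difference between the 2 ratios was not tested. The macrophage difference was called higher by size (log2 1.38), as were 0.291% of the 2749 genes that reached the minimum level in this class. The neutrophil difference below was the other call, in a class where 1.9% of 2897 genes were called higher. Endothelial-like cells had 0 Cxcl14 UMIs in 398 control and 7 in 852 haplodeficient cells, which allows no fold. T cell-like cells had 0 and 5 UMIs.

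The macrophage-like class held 2 large clusters, and Cxcl14 was higher in the haplodeficient library in each. Cells led by Gpnmb, Fabp5 and Trem2, genes of lipid-handling macrophages, had 279.9 CPM in control cells (258 to 303, 634 UMIs) and 612 CPM in haplodeficient cells (593 to 632, 3815 UMIs), a ratio of 2.19 (2.01 to 2.38). Cells led by the chemokine genes Ccl12, Ccl8 and Ccl7 and by MHC class II genes had 83.2 CPM in control cells (72.9 to 94.6, 233 UMIs) and 209.8 CPM in haplodeficient cells (196 to 225, 828 UMIs), a ratio of 2.52 (2.18 to 2.93). The Gpnmb-led cells were higher than the Ccl12-led cells in both libraries, with intervals that did not overlap. Both ratios were called by size, as were 0.69% and 0.515% of the genes at the minimum level in the Gpnmb-led and Ccl12-led cells. The Gpnmb-led cluster made up 188 of 821 control and 467 of 1404 haplodeficient macrophage-like cells. With the same cluster weights in both libraries the ratio over the class was 2.32. At 1000 UMIs per cell, a Cxcl14 UMI was left in 10.9% (8.82 to 13.3) of 778 control macrophage-like cells and in 22.6% (20.3 to 24.97) of 1280 haplodeficient ones (31.2% and 52.8% unthinned, median depth 4898 and 5502 UMIs). T cell-like cells had it in 0% and 0.0983% of thinned cells. Share and level thus both differed in the same direction, and the share intervals did not overlap. Macrophage-like cells with a Cxcl14 UMI had Gpnmb at 1070.0 and 1426 CPM in the control and haplodeficient library, and those without it 191 and 242 CPM. The mannose receptor gene Mrc1 lay the other way, at 309 and 184 CPM with and 858 and 731 CPM without a Cxcl14 UMI. These genes were chosen after seeing values, and cells with a UMI are also the deeper ones.

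**Figure D3:**
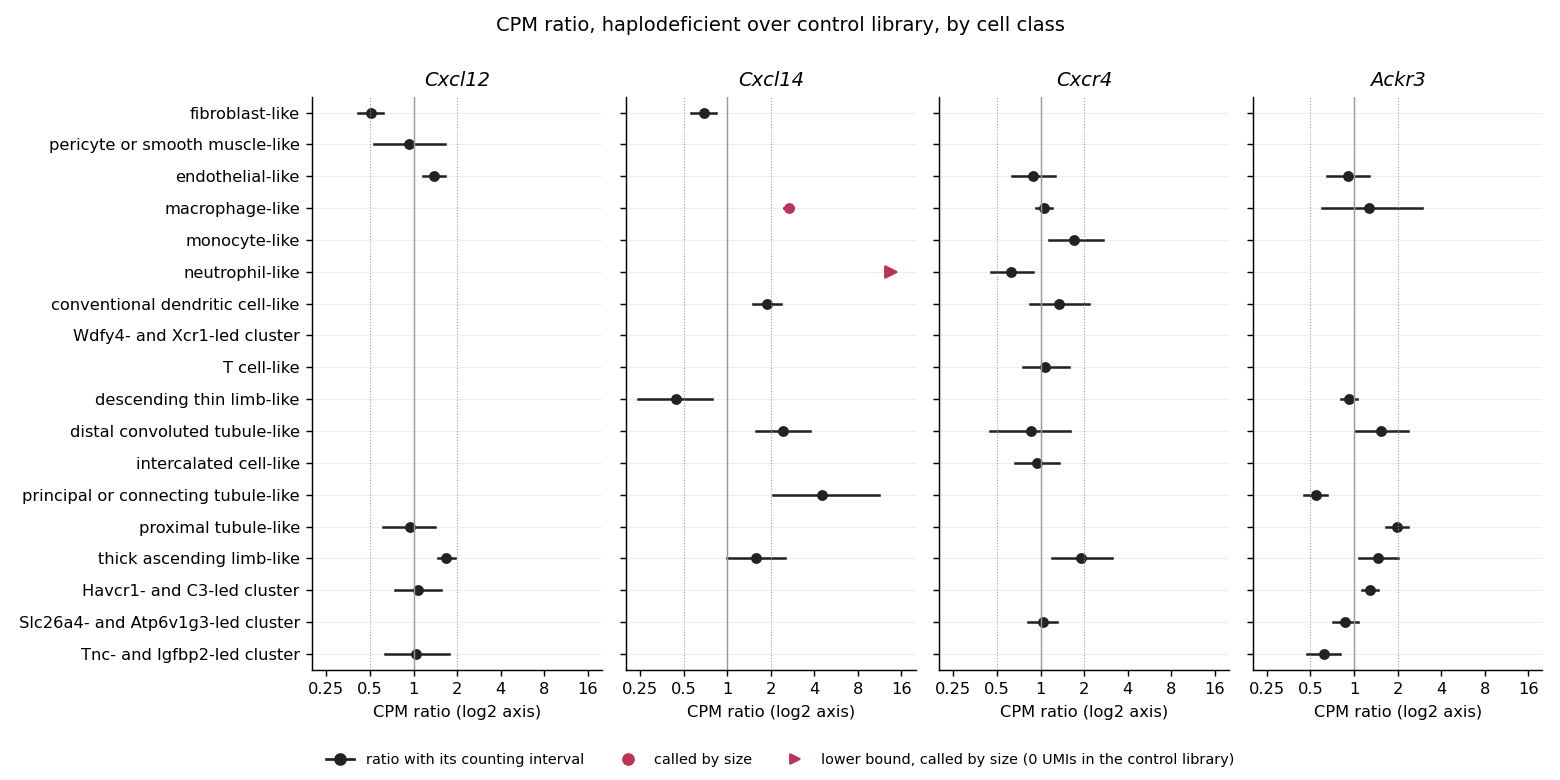
Ratio of levels, haplodeficient over control (log2 axis), for each gene in the 18 classes and clusters, drawn where both libraries together had at least 30 UMIs. Bars are exact conditional binomial intervals, dotted lines mark ratios of 0.5 and 2, red marks a difference called by size, and the arrowhead is a lower bound. Cxcl14 in macrophage-like cells lies at 2.66 and in neutrophil-like cells at or above 13.6, and Cxcl12 in fibroblast-like cells at 0.506.

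In neutrophil-like cells (S100a8, S100a9, Csf3r, Retnlg) Cxcl14 was detected in the haplodeficient library alone. The control library had 0 UMIs in 103 cells, and the haplodeficient library had 246 CPM (219 to 276) on 291 UMIs in 80 of 617 cells. With the control set to a floor of 3 UMIs in that library (18.2 CPM), the level was at least 13.6-fold higher. The cell with the most Cxcl14 held 22 UMIs, so no single cell carried the level. Thinned to 1000 UMIs, 8.76% (6.57 to 11.4) of 571 haplodeficient neutrophil-like cells kept a Cxcl14 UMI, and 0 of 96 control cells did, which at the 3-count limit allows a share of up to 3.12% (unthinned 12.97% and 0%, median depth 1774 and 1559 UMIs). Free RNA of the control held Cxcl14 at 8.17 CPM (6.10 to 10.7), that of the haplodeficient library held it at 85.8 CPM (78.3 to 93.9), and 0.551 and 3.34 CPM of it was expected in neutrophil-like cells. In the same library T cell-like cells had 1.58 CPM and endothelial-like cells 1.07 CPM. Macrophage markers summed to 479 CPM in control and 1046 CPM in haplodeficient neutrophil-like cells, with Mrc1 at 0 in both. Without every cell that had a UMI of C1qa, C1qb, C1qc, Adgre1, Csf1r or Mrc1, a choice made after seeing the data, 472 haplodeficient cells kept Cxcl14 at 189 CPM (161 to 220.0) on 163 UMIs, and 76 control cells had 0. The level was then at least 7.46-fold higher over the same floor, which is coarser with fewer control cells.

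The haplodeficient neutrophil-like cells with a Cxcl14 UMI differed from those without in other genes, all chosen after their values were seen and given as a description. Apoe, a lipid carrier gene, was at 2625 CPM in cells with and 265 CPM in cells without it. Siglecf, a sialic acid-binding lectin gene also seen in tissue neutrophils, was at 368 and 143 CPM. The reverse held for Cxcr4 itself, at 66.9 and 198 CPM. The neutrophil gene S100a8 was at 30058 and 27015 CPM. Trem2, a gene of Gpnmb-led macrophages, was at 186 and 16.5 CPM, and Lyz2, a myeloid lysozyme gene, at 3208 and 894 CPM. Of the markers used for the removal above, C1qa was at 43.03 and 21.6 CPM, C1qb at 33.5 and 31.9, C1qc at 0 and 13.4, Adgre1 at 57.4 and 53.5 and Csf1r at 95.6 and 53.5. Some macrophage genes thus differed with the Cxcl14 UMIs and others hardly did, and the part of Apoe, Trem2 and Lyz2, which the removal did not use, was not tested.

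Conventional dendritic cell-like cells (Cd209a, Flt3, Mgl2) had Cxcl14 at 128 CPM in control cells (105 to 154, 109 UMIs) and 240.5 CPM in haplodeficient cells (217 to 266, 369 UMIs), a ratio of 1.88 (1.52 to 2.35) that did not reach the size rule (log2 0.89). When each library was clustered alone the ratio was 7.99, with other cells in the class. Macrophage markers summed to 5877 and 7099.6 CPM there. A second dendritic cluster, led by Wdfy4, Xcr1 and Clec9a and left unnamed, had 1.72 and 1.43 CPM. Monocyte-like cells had 0 and 17 UMIs, the latter 9.17 CPM. Free RNA was expected to give 1.99 CPM in those monocyte-like cells, and within the haplodeficient library the monocyte level lay far below that of neutrophil-like and macrophage-like cells. Of all Cxcl14 UMIs in cells, macrophage-like cells held 66.8% of those of the control and 80.9% of those of the haplodeficient library, fibroblast-like cells 15.4% and 3.46%, and neutrophil-like cells 0% and 4.98%. Over all retained cells together, the Cxcl14 levels were 12.2 and 62.3 CPM, with a ratio of 5.12 (4.82 to 5.44), with 821 and 1404 macrophage-like cells counted.

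**Figure D4:**
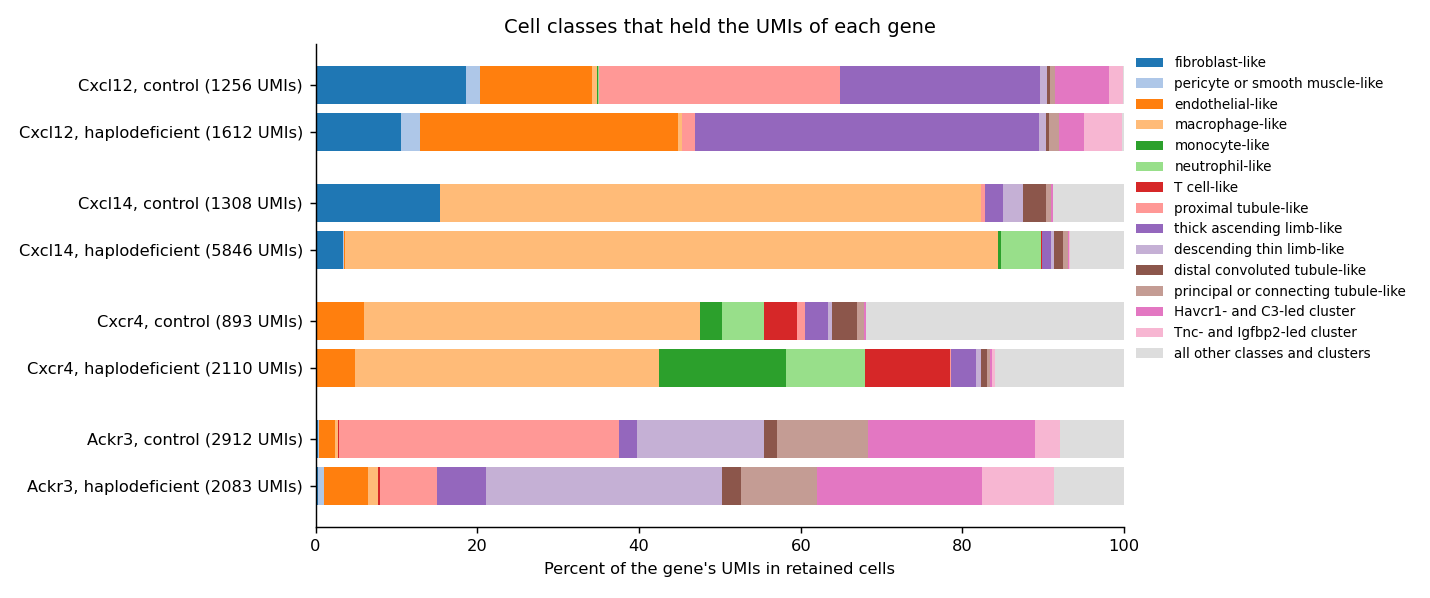
Percent of each gene's UMIs in retained cells that lay in each cell class, 1 bar per gene and library, with the UMI total beside the name. Most Cxcl14 UMIs lay in macrophage-like cells in both libraries, Cxcr4 UMIs in leukocytes, and Ackr3 UMIs in tubule cells.

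Cxcr4, the signalling receptor of CXCL12, was a leukocyte transcript with smaller sites in tubule and vessels. It was highest in neutrophil-like cells of the control library and in monocyte-like cells of the haplodeficient library. Neutrophil-like cells had 279 CPM in control cells (204 to 372, 46 UMIs) and 174 CPM in haplodeficient cells (151 to 199.9, 206 UMIs), a ratio of 0.626 (0.453 to 0.882). Monocyte-like cells (Ly6c2, Ccr2, Plac8) had 104 CPM in control cells (67.6 to 154, 25 UMIs) and 179 CPM in haplodeficient cells (159.9 to 199, 331 UMIs), a ratio of 1.71 (1.14 to 2.68). The neutrophil level was thus lower and the monocyte level higher in the haplodeficient library. Neither difference was called, and the difference between the 2 ratios was not tested. In the haplodeficient library the levels of these 2 classes overlapped. At 1000 UMIs per cell, a Cxcr4 UMI was left in 23.96% (15.8 to 33.7) of 96 control neutrophil-like cells and in 14.7% (11.9 to 17.9) of 571 haplodeficient ones (30.1% and 24.1% unthinned). In monocyte-like cells the thinned shares were 18.9% (9.44 to 31.97) of 53 and 12.6% (9.41 to 16.4) of 373 (37.7% and 47.6% unthinned), an order opposite to that of the levels, so no order is read for monocytes from the share. Proximal tubule-like cells had none in 2745 and 283 thinned cells. Monocyte-like cells rested on 53 control cells, against 374, and carried neutrophil markers at 138 and 1233 CPM, of which 5 of 8 were at 0 in the control and Ly6g alone in the haplodeficient library. The part of these markers in the Cxcr4 ratio was not tested. With each cell named alone from its markers, the monocyte ratio was 2.93.

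In macrophage-like cells Cxcr4 was at 72.6 CPM in control cells (65.4 to 80.4, 371 UMIs) and 76.1 CPM in haplodeficient cells (70.9 to 81.6, 792 UMIs), a ratio of 1.05 (0.926 to 1.19). The 2 clusters differed in direction: Ccl12-led cells had 69.99 and 50.9 CPM, a ratio of 0.728 (0.595 to 0.891), and Gpnmb-led cells 76.4 and 94.7 CPM, a ratio of 1.24 (1.04 to 1.48). The class ratio near 1 therefore joined a lower and a higher cluster, and it was 0.845 with the same cluster weights in both libraries. T cell-like cells (Cd3d, Cd3e, Trbc2) had 65.7 CPM in control cells (46.2 to 90.5, 37 UMIs) and 70.3 CPM in haplodeficient cells (61.3 to 80.1, 223 UMIs), a ratio of 1.07 (0.753 to 1.56). Conventional dendritic cell-like cells had 32.8 and 43.7 CPM, a ratio of 1.33 (0.844 to 2.15). NK cell-like cells, with 19 and 134 cells, had 171 and 88.6 CPM, and with so few control cells no ratio is given. The T cell interval included 1, and its bounds still allow a change of up to 1.56-fold. Intercalated cell-like cells, the acid- and base-secreting cells of the collecting duct (Foxi1, Atp6v1g3, Kit), had Cxcr4 at 46.7 CPM in control cells (37.1 to 58.1, 81 UMIs) and 44.3 CPM in haplodeficient cells (33.4 to 57.5, 56 UMIs), a ratio of 0.947 (0.662 to 1.35). T cell markers summed to 2.88 and 3.16 CPM and macrophage markers to 102 and 327 CPM in these cells. Of the other tubule classes, distal convoluted tubule-like cells had the most in the control, 3.45 and 2.95 CPM, and principal or connecting tubule-like cells had 1.12 and 0.910 CPM. An unnamed cluster led by Slc26a4 and Atp6v1g3, with intercalated and principal cell genes together, had 17.7 and 18.3 CPM. Over all retained cells the Cxcr4 levels were 8.31 and 22.5 CPM, with a ratio of 2.71 (2.50 to 2.93). Within the leukocyte classes above, the ratios ran from 0.626 to 1.71, and the haplodeficient library had more cells in each of them. Whether this reflects the kidneys or the recovery of cells from them was not tested.

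In endothelial-like cells Cxcr4 was at 17.4 CPM in control cells (13.1 to 22.8, 53 UMIs) and 15.5 CPM in haplodeficient cells (12.6 to 18.8, 101 UMIs), a ratio of 0.887 (0.630 to 1.26). Glomerular-like cells had 24.3 CPM in control cells (12.9 to 41.5, 13 UMIs) and 39.01 CPM in haplodeficient cells (29.3 to 50.9, 54 UMIs), a ratio of 1.61 (0.865 to 3.21). Descending vasa recta-like cells had 25.8 CPM in control cells (15.03 to 41.3, 17 UMIs) and 9.74 CPM in haplodeficient cells (4.67 to 17.9, 10 UMIs), a ratio of 0.378 (0.155 to 0.873). Glomerular-like cells thus held 54 of the 101 endothelial Cxcr4 UMIs of the haplodeficient library and 13 of the 53 of the control. The podocyte marker Magi2 was among the leading genes of this subcluster, and podocyte markers summed to 2294 and 1844 CPM. Macrophage markers summed to 542 and 427 CPM in it. Their part in the Cxcr4 level was not tested. Without the glomerular-like subcluster and the subclusters with pericyte or proximal tubule genes, control endothelial cells had Cxcr4 at 15.1 CPM (10.04 to 21.8) and haplodeficient ones at 6.96 CPM (4.55 to 10.2), a ratio of 0.461 (0.260 to 0.815). The mean of each cell's own CPM gave 0.546, and separate clustering of each library 0.529. Each of these ratios lay below 1, the one over all endothelial-like cells with an interval that included 1, and their size rested on which cells were summed or how.

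Ackr3, the scavenging receptor, was mainly a tubule transcript in these kidneys. Descending thin limb-like cells (Slc14a2, Fst, Cryab), of the loop that enters the medulla, had 73.8 CPM in control cells (67.2 to 80.9, 459 UMIs) and 68.1 CPM in haplodeficient cells (62.8 to 73.8, 608 UMIs), a ratio of 0.923 (0.816 to 1.04). The Tnc- and Igfbp2-led cluster had 84.6 CPM in control cells (68.1 to 104, 90 UMIs) and 52.1 CPM in haplodeficient cells (44.8 to 60.1, 185 UMIs), a ratio of 0.615 (0.476 to 0.80). The Havcr1- and C3-led cluster, which held proximal tubule genes beside the injury genes Havcr1 and Vcam1 and stayed unnamed, had 54.3 CPM in control cells (50.01 to 58.8, 598 UMIs) and 69.7 CPM in haplodeficient cells (63.2 to 76.6, 424 UMIs), a ratio of 1.28 (1.13 to 1.46). The thin limb and the Tnc-led cluster overlapped in the control library. The Tnc-led cluster was the highest in the control and the Havcr1-led cluster in the haplodeficient library. Proximal tubule-like cells had 28.5 CPM in control cells (26.7 to 30.3, 1008 UMIs) and 56.4 CPM in haplodeficient cells (47.7 to 66.3, 147 UMIs), a ratio of 1.98 (1.66 to 2.36) and a log2 ratio of 0.88. Each of the 3 clusters with at least 50 cells in both libraries was higher in the haplodeficient library: the ratio was 1.94 (1.48 to 2.51) in the Slc7a13-led, 2.81 (2.07 to 3.76) in the Slc6a19-led and 3.51 (1.75 to 6.84) in the shallow Slc34a3-led cluster. The last rests on 16 haplodeficient UMIs, in a cluster where 16.2% of all genes were called higher. These cells also differed in number, 2904 and 298, and in median mitochondrial share, 23.4% and 7.27%. Proximal tubule markers summed to 37172 and 22304 CPM and dissociation-stress genes to 4107 and 7837 CPM. Their part in the Ackr3 ratio was not tested. With a mitochondrial limit of 25% the ratio was 1.57. Principal or connecting tubule-like cells (Aqp2, Hsd11b2, Scnn1g) lay the other way, with 46.5 CPM in control cells (41.7 to 51.8, 331 UMIs) and 25.3 CPM in haplodeficient cells (21.9 to 29.2, 195 UMIs), a ratio of 0.545 (0.454 to 0.652). With the same cluster weights it was 0.794. The Aqp2- and Aqp3-led cluster, with 210 control and 15 haplodeficient cells, was not lower. Its intervals overlapped and its haplodeficient level was the higher (values under other observations). The Krt15- and Sprr2f-led cluster alone, which held 362 of 572 control and 664 of 679 haplodeficient cells, had a ratio of 0.650 (0.522 to 0.809). Its leading genes included the urothelial gene Upk3a beside Fxyd4, a principal cell gene, and urothelium markers summed to 724 and 690.1 CPM in it, against 3402 and 3391 CPM for principal or connecting tubule markers. The part of the urothelial genes in the ratio was not tested. No Ackr3 difference was called by size.

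Leukocytes had little Ackr3. Macrophage-like cells had 1.96 and 2.50 CPM, and T cell-like cells 2 and 3 UMIs. Free RNA held it at 20.7 CPM (17.4 to 24.6) and 13.1 CPM (10.2 to 16.5), of which 1.24 and 0.688 CPM was expected in descending thin limb-like cells. Thinned to 1000 UMIs, an Ackr3 UMI was left in 5.71% (3.57 to 8.59) of 368 control descending thin limb-like cells and in 5.67% (4.03 to 7.74) of 652 haplodeficient ones (35.7% and 30.6% unthinned, median depth 10104 and 8544 UMIs), and in 0.575% and 0% of T cell-like cells. The level and share of the thin limb differed between the libraries by less than counting error. In endothelial-like cells Ackr3 was at 18.7 CPM in control cells (14.2 to 24.3, 57 UMIs) and 16.99 CPM in haplodeficient cells (13.98 to 20.5, 111 UMIs), a ratio of 0.906 (0.653 to 1.27). The mean of each cell's own CPM gave 1.47, so the direction turned with how cells were weighted. Arterial-like cells were highest among the named subtypes, at 53.2 CPM (34.4 to 78.6) and 42.7 CPM (27.05 to 64.02), a ratio of 0.802 (0.435 to 1.47), and venous-like, descending vasa recta-like and glomerular-like cells lay between 5.60 and 16.5 CPM.

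Over the whole endothelium, receptor UMIs were more frequent in cells with a Cxcl12 UMI. Of control endothelial-like cells with a Cxcl12 UMI (82 cells), 20.7% had an Ackr3 UMI and 19.5% a Cxcr4 UMI, against 7.28% and 7.59% of those without Cxcl12. In the haplodeficient library (194 cells) the shares were 19.6% and 12.4% with and 6.69% and 5.47% without Cxcl12. Deeper cells show more UMIs of every gene, so co-detection is a description only. Within subclusters the pattern varied on few cells: for Cxcr4 the shares with and without Cxcl12 were 37.5% and 7.35% in control descending vasa recta-like, 8.33% and 10% in control arterial-like and 21.4% and 28% in haplodeficient Myh11-led cells. For Ackr3 they were 20% and 55% in control Myh11-led cells. In fibroblast-like cells the 2 ligands were found without such a preference: 44.3% of control cells with and 46% without a Cxcl12 UMI had a Cxcl14 UMI, and 30% and 40% in the haplodeficient library.

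The other genes of the pathway were read as a list of 56: other ligands, proteins that cleave or hold CXCL12, related receptors, G proteins, regulators of receptor trafficking, and effectors of migration. Of these, 55 were analysed, and Cxcl11 was not analysed here. In endothelial-like cells 25 reached the minimum level and 0 were called in either direction, with a median log2 ratio of -0.09 against -0.03 over all genes at that level, of which 0.502% were called. Hspg2, the heparan sulphate core protein perlecan that can hold CXCL12, had 161 and 193 CPM (log2 0.26), and Ramp2, the partner of Calcrl in the receptor of adrenomedullin, had 488 and 709 CPM (log2 0.53). The largest shift among the endothelial genes of the list was in Cd74, the MHC class II chaperone and receptor of the CXCR4 ligand MIF, at 143 and 263 CPM (log2 0.86), with macrophage markers at 593 and 669.6 CPM in these cells. All 3 were under the fold of the size rule. In fibroblast-like cells 26 reached the level and 2 were called lower, where 1.85% of all genes were: Cd74 at 329 and 127 CPM (log2 -1.34), and Sdc4, a heparan sulphate syndecan, at 201 and 86.1 CPM (log2 -1.17). Cd74 is also high in macrophages, whose marker sums in these cells are given above. In macrophage-like cells 0 of 31 were called (background 0.982%), in neutrophil-like cells 0 of 31 (4.8%), in pericyte or smooth muscle-like cells 0 of 22 (0.972%), and in the Tnc- and Igfbp2-led cluster 0 of 24 (1.2%). In monocyte-like cells 2 of 32 were called lower, where 1.92% of all genes were: Mmp14, a membrane metalloprotease that cleaves CXCL12, at 125 and 58.8 CPM (log2 -1.03), and Pik3cg, the G-protein-coupled PI3-kinase, at 155 and 63.7 CPM (log2 -1.22). In the Havcr1- and C3-led cluster 1 of 20 was called higher (0.407% of all genes), Cpn1, a carboxypeptidase that trims CXCL12, at 164 and 412 CPM (log2 1.30). Proximal tubule-like cells had 2 of 20 called higher, where 1.6% of all genes were: Cpn1 at 73.3 and 294 CPM (log2 1.93) and Cd74 at 230.2 and 671 CPM (log2 1.52). Intercalated cell-like cells had Cd74 alone of 20 called higher (1.39% of all genes), at 68.1 and 279.9 CPM (log2 1.96), so Cd74 lay opposite to its direction in fibroblast-like cells, a difference that was not tested. Macrophage markers summed to 517 and 970.1 CPM in proximal tubule-like cells and to 102 and 327 CPM in intercalated cell-like cells, and their part was not tested. Distal convoluted tubule-like cells had Dpp4, a peptidase that cleaves CXCL12, alone of 18 called higher (0.456% of all genes), at 32.9 and 87.9 CPM (log2 1.29). In 5 further classes 0 were called: of 23 in descending thin limb-like, 21 in thick ascending limb-like, 21 in principal or connecting tubule-like, 31 in T cell-like and 32 in conventional dendritic cell-like cells, with the background shares given above. Grk2, a kinase that switches off CXCR4, was at 248 and 157 CPM (log2 -0.65) in neutrophil-like cells, where it was not called.

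Finally, genes with the most similar level were sought over 28 points, the 14 named classes with at least 50 cells in each library in both libraries, by Pearson correlation of log2(CPM + 5) among 8412 genes with at least 50 CPM in 1 or more points. The points of a class share its cells' makeup and those of a library its depth, so the values are descriptions. For Cxcl12 they were Fbn1 (0.910), Cdkn1c (0.897), Snai2 (0.894), Col8a1 (0.892) and Gata6 (0.892). Fbn1 and Col8a1 encode matrix proteins and Snai2 a mesenchymal transcription factor. For Cxcl14 they were Clmp (0.893), Tnfsf13b (0.867), Rab7b (0.845), Cxcl9 (0.838) and Gas7 (0.822). Tnfsf13b encodes the B-cell survival factor BAFF and Cxcl9 an interferon-induced chemokine. For Cxcr4 they were Sp140 (0.936), Rhog (0.930), Pag1 (0.920), Cyth1 (0.916) and Grk2 (0.912), the last being the kinase named above. For Ackr3 they were Zfp462 (0.866), Amot (0.807), Defb29 (0.785), Rnf183 (0.785) and Zfp697 (0.779). Amot encodes angiomotin, a regulator of YAP. With Spearman's rho in place of Pearson's r, the leading gene was Plscr4 for Cxcl12, Ccl7 for Cxcl14, Cyth1 for Cxcr4 and Uaca for Ackr3, so only Cyth1 and Cxcl9 stayed among the 5 nearest genes of their member.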

How the data were processed

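Single-cell RNA was measured in 2 mouse kidney libraries by droplet 3′-end sequencing. The deposited matrices hold UMI counts per gene and barcode, whole numbers that the authors did not normalize, made per the file headers with Cell Ranger 4, on mm10 per the submitters' processing notes. They hold 1342632 and 1430043 barcodes, mostly without a cell, so cells were selected here. No column of another sample was present (0).

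Barcodes with at least 500 UMIs, 200 genes and at most 50% mitochondrial UMIs were kept. Likely doublets, 0.8% per 1000 cells by a simulated-doublet score, were removed (715 and 804 cells). Cells of both libraries were clustered together in Python (scanpy 1.11.5, leidenalg 0.10.2) on 2000 variable genes without the 4 genes, with 30 components, 15 neighbours and resolution 1 (20 components and 0.5 for endothelial subclusters). A cluster was named only from at least 3 passing markers of 1 list. Of 34 clusters, 4 had that many and still stayed unnamed. In the Havcr1-, Tnc- and Wdfy4-led clusters, another list had more genes among the leading genes. The deep cells of the Slc26a4-led cluster also carried markers of a further class. The B-cell cluster also held Ccr7-positive dendritic genes and entered no comparison. Gene IDs matched GENCODE M21 for 99.6% of 32285. Levels have exact Poisson intervals, shares exact Clopper-Pearson intervals, and ratios exact conditional binomial intervals. The size rule and the ratio interval were tested on simulated counts, and the other steps were not.

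The 4 genes, the marker and pathway lists and the size rule were chosen with earlier results of these data known. Named beside the 4 genes are the 5 genes nearest to each by Pearson's r and pathway genes called by size in the classes discussed. Hspg2, Ramp2, endothelial Cd74, the neutrophil value of Grk2 and the genes given for cells with and without a Cxcl14 UMI were added after their values were seen. Alternatives were other cell filters, doublets kept, other clustering, naming of single cells, other scaling, means of cells, equal cluster weights, free RNA subtracted, and other pseudocount, minimum level and thinning depth.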

Additional observations from a re-analysis of the deposited data

Results flagged for a closer look

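Only named classes at the minimum level of the size rule were searched here. For 3 genes, 2 such classes lay on opposite sides of a ratio of 1 (haplodeficient over control), with counting intervals that did not include it. Each rests on 1 library per group, and the differences between classes were not tested. Cxcl12 had a ratio of 1.37 in endothelial-like and 0.506 in fibroblast-like cells. Cxcl14 had 2.66 in macrophage-like and 0.689 in fibroblast-like cells. Cxcr4 had 1.71 in monocyte-like and 0.626 in neutrophil-like cells. Ackr3 showed the same in 2 classes under the minimum level. Its ratio was 1.98 (1.66 to 2.36) in proximal tubule-like and 0.545 (0.454 to 0.652) in principal or connecting tubule-like cells.

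A signal also lay outside the cells. In free RNA of the haplodeficient library, Cxcl14 was at 85.8 CPM and Cxcr4 at 19.8 CPM, above the 8.17 and 7.54 CPM of the control library. Over all retained cells both genes were also higher in the haplodeficient library, as given above, and the makeup of the libraries differed. The part of that makeup in the free RNA was not tested.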

How the results depend on the processing

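Of 305 alternative values of 29 ratios, 31 lay outside the counting interval of the main value. Direction was scored only for the called ratios, Cxcl14 in macrophage-like and neutrophil-like cells, and neither changed it. The neutrophil ratio, with its control set to the floor, could hardly do so. Several uncalled ratios crossed 1. Among them were Ackr3 in endothelial-like (0.758 to 1.47) and macrophage-like cells (0.422 to 1.86) and Cxcl12 in proximal tubule-like cells (0.801 to 1.43). With each library clustered alone, the endothelial ratio of Cxcl12 was 1.68 and that of Cxcr4 0.529. With the mean of each cell's own CPM, that of Cxcr4 was 0.546 and that of Ackr3 1.47. Without subclusters that carry genes of other classes, Cxcr4 was at 0.461, on 28 of 53 control and 26 of 101 haplodeficient UMIs. The glomerular-like, Myh11-led and Slc34a1-led cells were then left out together. The cause of these shifts was not tested. The macrophage ratio of Cxcl14 was 2.32 with the same cluster weights. Its neutrophil lower bound was 8.54 with each cell named alone and 7.46 without cells with a macrophage marker UMI, where fewer control cells raise the floor. Over its alternatives, the Cxcl12 ratio ran from 1.16 to 1.68 in endothelial-like and from 0.420 to 0.591 in fibroblast-like cells. With a minimum of 10 CPM in place of 50, genes called by size numbered 60 in place of 19 in endothelial-like and 67 in place of 27 in macrophage-like cells.

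No paired analysis was possible because each group has 1 library, and leaving one out leaves no comparison. The Cxcl14 ratio in endothelial-like cells has no value, with 0 control UMIs and 7 haplodeficient UMIs, near the floor. Depth limits classes with few control cells most: a level under 18.2 CPM in neutrophil-like and 12.5 CPM in monocyte-like control cells is under 3 UMIs.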

Other observations

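The cluster with B-cell genes, which held 12 control and 41 haplodeficient cells and also Ccr7, Ccl22 and Fscn1 of mature dendritic cells, had Cxcr4 at 23.4 and 92.9 CPM. T cell-like cells led by Il17a and Trdc, genes of interleukin-17-producing gamma-delta T cells, had Cxcr4 at 77.3 CPM on 7 UMIs and 113 CPM on 42 UMIs. Dividing T cell-like cells, led by histone genes and Top2a, had 26.2 CPM in the haplodeficient library. Shallow macrophage-like cells led by Retnla and Aif1 had Cxcl14 at 159.9 and 373 CPM on 7 and 84 UMIs, in 47 and 198 cells.

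A small proximal tubule-like cluster led by Akr1c18 and Serpina1f had the highest Ackr3 of any cluster with at least 50 control cells, 115 CPM (91.3 to 142) in 60 control cells. Its 10 haplodeficient cells had 78.9 CPM (34.1 to 156) on 8 UMIs. Principal cells led by Aqp2 and Aqp3, 210 and 15 cells, had Ackr3 at 63.2 CPM (54.05 to 73.6) and 72.1 CPM (42.7 to 114).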
